A study of Mus musculus with 10 samples.

Results

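The chemokine receptors on infiltrating leukocytes were examined as 7 genes, Ccr1, Ccr2, Ccr7, Cxcr3, Cxcr4, Cxcr6 and Cx3cr1, taken by symbol from the 55291 rows of a gene count matrix. All 7 were measured and all 7 passed the filter on low counts, which kept 17015 genes. The matrix came from bulk RNA-seq of the right liver lobe of 10 female mice aged 16 to 20 weeks. The mice carried Cas9 behind a Lox-Stop-Lox cassette, which Cre opens, and each received an AAV8 virus with a guide RNA and Cre under the hepatocyte promoter TBG. Leukocytes were therefore not the cells that the virus targets, and the tissue edited was the hepatocyte. On day 10 the mice were given CCl4, a solvent that hepatocytes turn into a toxic radical, as 1 part in 9 parts of olive oil at 10 µL per g, or olive oil alone, and the livers were taken 48 h later. The groups were NTC-Veh (non-targeting guide, oil, 2 livers), sgBap1-Veh (Bap1 guide, oil, 2 livers), NTC-CCl4 (3 livers) and sgBap1-CCl4 (3 livers), so that Cas9, virus and Cre were common to all of them.

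Chemokine receptors are G protein-coupled receptors that steer leukocytes along gradients of small secreted proteins, the chemokines. Inflammatory monocytes leave the bone marrow through Ccr2 and enter the injured liver, where they become macrophages, and Cx3cr1 marks patrolling monocytes and monocyte-derived cells. Lymphocytes use another set, with Cxcr3 on activated T and NK cells, Cxcr6 on liver-resident T and NKT cells and Ccr7 on naive T cells and migrating dendritic cells. Cxcr4, the receptor of Cxcl12, is carried by most leukocytes.

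Total counts per liver were 33047904 to 52199904, and 3 counts were 0.0511 to 0.112 counts per 1000000 of the TMM-normalised library (CPM). The targeted gene Bap1 was at 34.8 and 34.8 CPM in NTC-Veh and 17.5 and 19.5 CPM in sgBap1-Veh, and at 29.5 to 31.5 CPM in NTC-CCl4 and 17.0 to 21.8 CPM in sgBap1-CCl4. The 6 hepatocyte markers summed to 63957 to 154168 CPM, so the liver label held. One library stood apart. In sgBap1-CCl4 replicate 2 the 4 fat cell genes Adipoq, Plin1, Lep and Retn summed to 88.8 CPM, against at most 0.0850 CPM elsewhere. Some receptor results that involve the sgBap1-CCl4 group are therefore also given without that liver. The results of ligands, markers and other genes include it. NTC-Veh replicate 2 held less T cell and B cell RNA than replicate 1, with T cell genes summing to 3.27 against 7.81 CPM and B cell genes to 3.46 against 7.43 CPM.

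Of the 7 receptors, 4 lie on mouse chromosome 9, and 3 of these, Cxcr6, Ccr1 and Ccr2, lie within 307 kb (GRCm38, chromosome 9, 123806475 to 124113557, GENCODE vM21). Cxcr6 spans 123806475 to 123811760 on the + strand, inside the span of Fyco1 on the other strand with no shared exon. Ccr1 spans 123962124 to 123968692 on the - strand and Ccr2 124101950 to 124113557 on the + strand. Cx3cr1 lies elsewhere on the chromosome (119901616 to 120069879, - strand), and its merged exons overlap those of Gm33858 on the other strand. Ccr7 is on chromosome 11 (99144196 to 99155077, - strand), Cxcr3 on chromosome X (101731535 to 101734269, - strand) and Cxcr4 on chromosome 1 (128588199 to 128592293, - strand). Stretches of 50 bases, the read length, that also occur in another gene made up 1.91% of Ccr2, 1.06% of Cx3cr1 and none of the other 5.

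RefSeq promoter windows (GRCm38.p6, the 250 bases before the start site) were matched for 6 of the 7. Those of Ccr1 and Cxcr6 are shown because both genes lie in the cluster on chromosome 9 and because their levels moved in opposite directions with CCl4 in sgBap1 livers, as described below. Capitals mark GAGGAA, the core of ETS factors such as PU.1, and TGTGGT, the RUNX core, on either strand, which appear as TTCCTC and ACCACA on the other one.

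Ccr1, chr9:123968693-123968942, - strand: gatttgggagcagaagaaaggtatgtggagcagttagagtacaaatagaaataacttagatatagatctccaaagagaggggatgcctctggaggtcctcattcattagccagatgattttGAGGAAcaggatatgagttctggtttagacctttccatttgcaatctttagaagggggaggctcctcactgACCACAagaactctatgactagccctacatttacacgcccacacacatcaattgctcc

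Cxcr6, chr9:123806227-123806476, + strand: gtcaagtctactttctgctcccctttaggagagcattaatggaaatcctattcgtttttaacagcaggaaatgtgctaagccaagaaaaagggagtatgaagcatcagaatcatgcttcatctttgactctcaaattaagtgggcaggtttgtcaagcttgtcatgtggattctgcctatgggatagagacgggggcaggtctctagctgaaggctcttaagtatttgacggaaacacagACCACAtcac

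Both windows hold 1 RUNX match, and the Ccr1 window also holds 1 GAGGAA. Among the 6 windows, TGTGGT was found in 4 and GAGGAA in 2, and the C/EBP motif TTGCNNAA in none. Over the windows of all 32851 starts the shares were 14%, 23.3% and 9.56%. Such matches describe letters in a window and are not known binding sites.

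The first question was how the receptors respond to injury. With the control guide, Ccr1, Ccr2, Cx3cr1, Cxcr4 and Ccr7 were higher after CCl4, by 2.66-fold for Ccr7 to 37.7-fold for Ccr1, while Cxcr3 and Cxcr6 did not pass the test. Thus 5 of 7 receptors were called, all higher, where 53.8% of all tested genes were called, 27.5% higher and 26.3% lower. With the Bap1 guide, Ccr1, Ccr2, Cxcr4 and Cx3cr1 were again higher and Cxcr6 was lower, which makes 5 of 7 called where 56.7% of genes were called, 29% higher and 27.7% lower. The median log2 fold change of the 7 was 2.08 and 1.91 in these comparisons, against 0.03 and 0.04 over all tested genes. The groups did not overlap for 5 of 7 receptors in NTC livers, all higher, where 71.7% of genes did not overlap and 36.7% were higher without overlap. They did not overlap for 5 of 7 in sgBap1 livers either, 4 higher and 1 lower, where 72.2% of genes did not overlap, 37.3% higher and 34.9% lower. With scaling by library size alone, 6 receptors were called in NTC livers (61.7% of genes) and 4 in sgBap1 livers (64.3%). Calls rest on edgeR's quasi-likelihood test with Benjamini-Hochberg adjustment over all tested genes and an adjusted p under 0.05. Fold changes are given with the SE that the p-value implies. In bulk tissue, fewer cells of a type and less RNA per cell cannot be told apart.

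**Figure D1:**
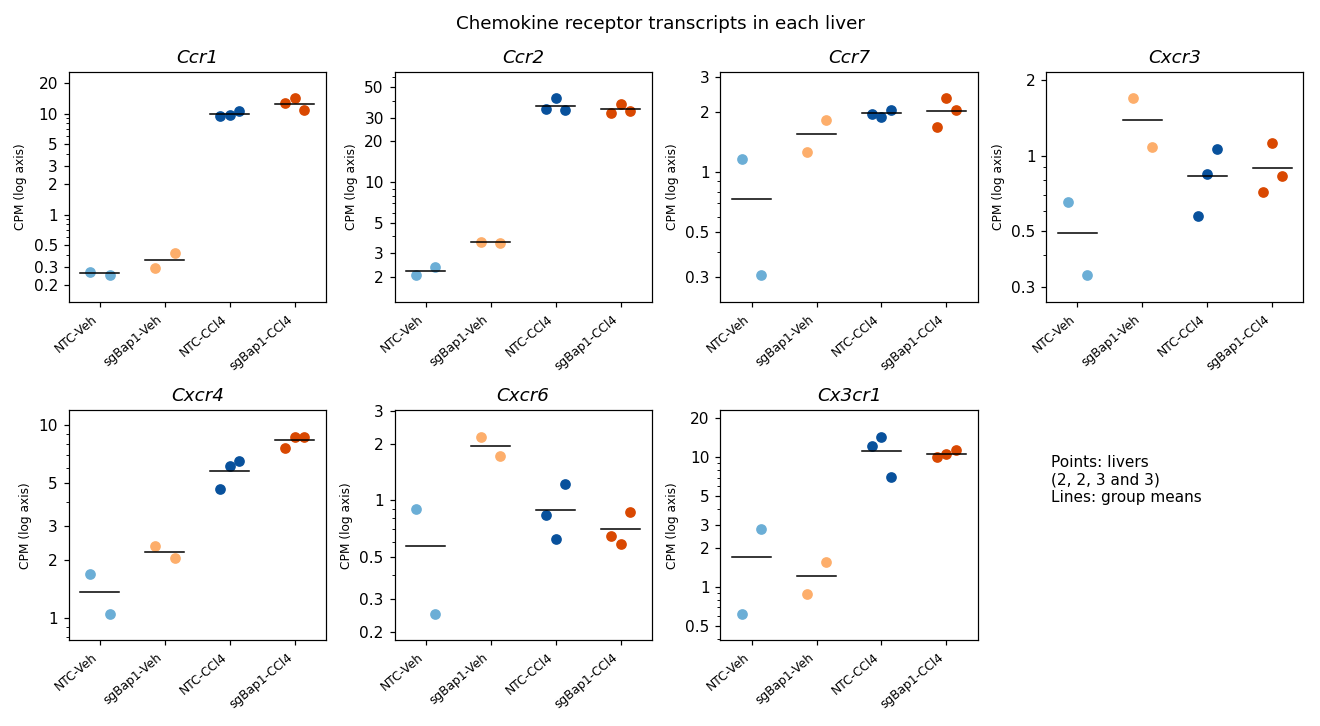
CPM of the 7 receptors in each liver (log axis, 1 panel per gene, points for livers, lines for group means). Ccr1, Ccr2, Cxcr4 and Cx3cr1 were higher in every CCl4 liver than in every vehicle liver, whereas Cxcr6 was highest in the 2 sgBap1-Veh livers.

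Ccr1, a receptor for Ccl3, Ccl5 and related ligands on monocytes and neutrophils, was nearly silent without injury. It was at 0.272 and 0.249 CPM in NTC-Veh and at 0.296 and 0.412 CPM in sgBap1-Veh. After CCl4 it was at 9.55, 9.71 and 10.6 CPM in NTC livers and at 12.6, 14.1 and 10.8 CPM in sgBap1 livers. Every CCl4 liver was above every vehicle liver. On the log2 scale Ccr1 rose by 5.24 ± 0.22 in NTC livers (adjusted p = 4.8e-07) and 5.16 ± 0.22 in sgBap1 livers (adjusted p = 2.7e-07). These were the largest changes of the 7 in both. With 9 to 11 counts in each vehicle liver, these SE, which are derived from the p-value, can be too small.

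Ccr2, the receptor for Ccl2, was the receptor with the most counts after injury. It was at 2.07 and 2.38 CPM in NTC-Veh, at 3.63 and 3.59 CPM in sgBap1-Veh, at 34.9, 41.5 and 33.9 CPM in NTC-CCl4 and at 32.2, 37.6 and 33.7 CPM in sgBap1-CCl4. The sgBap1-Veh livers started above both NTC-Veh livers, and the CCl4 groups ended in the same range. With CCl4 its log2 fold change was 4.04 ± 0.14 in NTC livers (adjusted p = 1.3e-07) and 3.25 ± 0.13 in sgBap1 livers (adjusted p = 2.6e-07).

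Cx3cr1, the receptor for the membrane-bound chemokine Cx3cl1, varied widely between the NTC-Veh livers. It was at 0.626 and 2.80 CPM in NTC-Veh and at 0.888 and 1.57 CPM in sgBap1-Veh. After CCl4 it was at 12.3, 14.4 and 7.08 CPM in NTC livers and at 10.1, 10.6 and 11.3 CPM in sgBap1 livers. No CCl4 liver overlapped a vehicle liver. Its log2 fold change was 2.73 ± 0.55 in NTC livers (adjusted p = 0.0030) and 3.15 ± 0.58 in sgBap1 livers (adjusted p = 0.0017).

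Monocyte genes were also higher after CCl4. All 8 monocyte markers (among them Ly6c2, Chil3 and Itgam) were called higher in both CCl4 comparisons. Over all tested genes, 27.5% were called higher in NTC livers and 29% in sgBap1 livers. The markers summed to 59.3 to 80.8 CPM in NTC-Veh and 118 to 138 CPM in sgBap1-Veh. After CCl4 they summed to 514 to 616 CPM in NTC livers and 478 to 691 CPM in sgBap1 livers. These sums were largely Lyz2, with means of 52.5, 101, 408 and 420 CPM in that order of groups. With the Bap1 guide in vehicle livers, fitted levels were higher for 7 of the 8 markers and 0 were called. The mean of Cx3cr1 was lower there, 1.23 against 1.71 CPM. Neutrophil markers, 5 of 6 of which were tested, were all called higher with CCl4 with either guide. Their sums went from 5.76 to 12.03 CPM over the vehicle livers to 27.9 to 39.1 CPM over the CCl4 livers. The part of monocyte or neutrophil number in the receptor changes was not tested.

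Cxcr4 was at 1.69 and 1.05 CPM in NTC-Veh and at 2.37 and 2.06 CPM in sgBap1-Veh. After CCl4 it was at 4.67, 6.16 and 6.56 CPM in NTC livers and at 7.66, 8.75 and 8.69 CPM in sgBap1 livers. No group overlapped another: each sgBap1 group was above the NTC group with the same treatment, and both CCl4 groups were above both vehicle groups. With CCl4 the log2 fold change was 2.08 ± 0.23 in NTC livers (adjusted p = 4.3e-05) and 1.91 ± 0.23 in sgBap1 livers (adjusted p = 5.6e-05).

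Ccr7, which guides dendritic and naive T cells to lymph nodes, was at 1.17 and 0.305 CPM in NTC-Veh and at 1.26 and 1.83 CPM in sgBap1-Veh. After CCl4 it was at 1.96, 1.90 and 2.06 CPM in NTC livers and at 1.69, 2.35 and 2.04 CPM in sgBap1 livers. On the log2 scale the change was 1.41 ± 0.44 in NTC livers (adjusted p = 0.020) and 0.39 ± 0.41 in sgBap1 livers (95% interval -0.52 to 1.31, adjusted p = 0.44). The call in NTC livers rested on NTC-Veh replicate 2, without which the log2 fold change was 0.75 (adjusted p = 0.091).

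Cxcr3, whose ligands Cxcl9, Cxcl10 and Cxcl11 are induced by interferon, was at 0.653 and 0.333 CPM in NTC-Veh and at 1.70 and 1.085 CPM in sgBap1-Veh. After CCl4 it was at 0.576, 0.845 and 1.07 CPM in NTC livers and at 0.715, 1.13 and 0.829 CPM in sgBap1 livers. Groups overlapped in both CCl4 comparisons. The log2 fold change was 0.74 (95% interval -0.18 to 1.66) in NTC livers and -0.65 (-1.49 to 0.19) in sgBap1 livers, with adjusted p of 0.16 and 0.17. With scaling by library size alone, the change in NTC livers passed the test (1.23, adjusted p = 0.031).

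Cxcr6, the receptor for Cxcl16, was at 0.898 and 0.249 CPM in NTC-Veh and at 2.18 and 1.72 CPM in sgBap1-Veh. After CCl4 it was at 0.831, 0.620 and 1.22 CPM in NTC livers and at 0.647, 0.582 and 0.871 CPM in sgBap1 livers. All 3 sgBap1-CCl4 livers were below both sgBap1-Veh livers. The log2 fold change in sgBap1 livers was -1.48 ± 0.45 (adjusted p = 0.016), and in NTC livers 0.62 (95% interval -0.47 to 1.71, adjusted p = 0.31). The fall in sgBap1 livers lost its call without sgBap1-Veh replicate 1 (-1.29, adjusted p = 0.10) and with scaling by library size alone (-1.02, adjusted p = 0.062). In NTC livers the value was 1.82 without NTC-Veh replicate 1 (adjusted p = 0.024) and -0.02 without NTC-Veh replicate 2.

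T cell and NK cell genes are given beside these receptors. Of 7 T cell markers, 2 (Cd4 and Cd8a) were called higher with CCl4 in NTC livers and 0 in sgBap1 livers, where 0 also passed at an unadjusted p under 0.05. Their summed level was 3.27 to 7.81 CPM in NTC-Veh, 11.2 to 12.2 CPM in sgBap1-Veh, 7.48 to 13.9 CPM in NTC-CCl4 and 7.03 to 11.9 CPM in sgBap1-CCl4. Of 6 NK cell markers, 3 were called higher in NTC livers and 0 in sgBap1 livers, with sums of 1.91 to 2.40, 3.74 to 4.04, 3.44 to 4.69 and 2.95 to 5.02 CPM in the same order. B cell markers summed to 3.46 to 7.43, 8.38 to 9.88, 8.81 to 11.5 and 7.62 to 9.23 CPM. Of 6 dendritic cell markers, 2 were called higher in NTC livers, and 3 higher and 3 lower in sgBap1 livers, with sums of 13.4 to 15.9, 17.9 to 20.9, 28.9 to 35.4 and 29.3 to 34.1 CPM. The higher sums were largely Itgax, with means of 1.73, 2.68, 17.5 and 17.1 CPM in the same order. Clec9a was at 4.16, 5.33, 3.26 and 3.66 CPM. Fitted levels were higher with CCl4 for 3 of the 6 with either guide. Over all tested genes, 53.8% were called in NTC livers and 56.7% in sgBap1 livers. The part of these cell types in the levels of Ccr7, Cxcr3 and Cxcr6 was not tested. Without the liver that held fat cell RNA, the same number of receptors was called in sgBap1 livers (5 of 7), and the log2 fold change of Cxcr6 was -1.37 (adjusted p = 0.041).

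**Figure D2:**
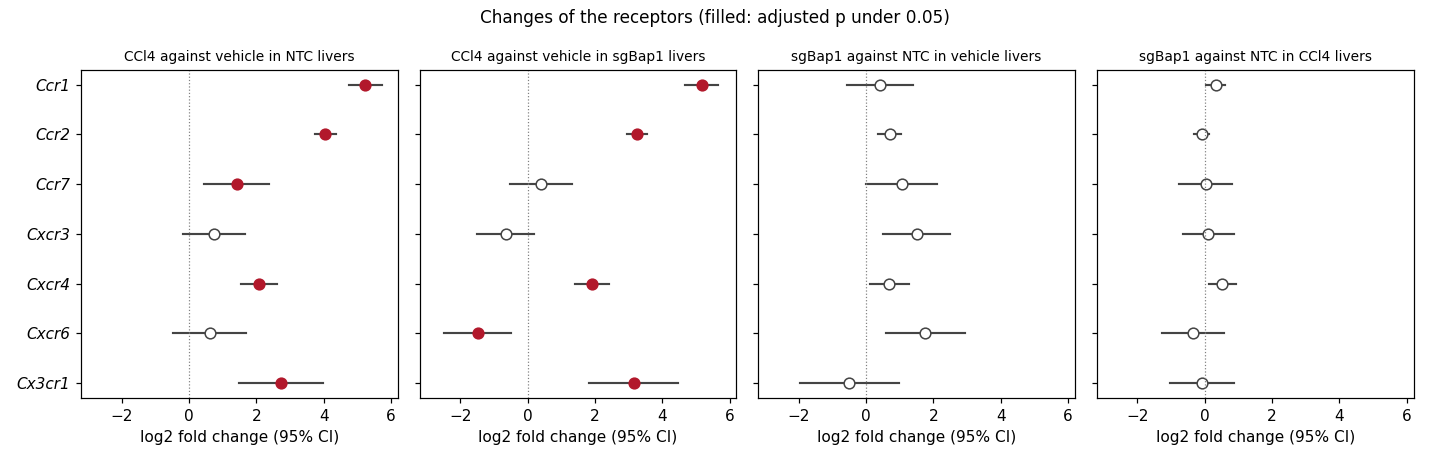
Log2 fold changes of the 7 receptors with 95% intervals in the 4 pairwise comparisons (points for estimates, filled where the adjusted p is under 0.05). Filled points occur in both CCl4 comparisons, 5 in each, and in neither comparison of the guides.

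The second question was whether the Bap1 guide changed the receptors. In vehicle livers, Ccr1, Ccr2, Ccr7, Cxcr3, Cxcr4 and Cxcr6 were higher in both sgBap1 livers than in both NTC livers, but none passed the test across all genes. The groups did not overlap for 6 of 7 receptors, where 40.9% of all tested genes did not overlap and 21.7% were higher without overlap. edgeR called 0 of 7 receptors, where 0.523% of genes were called, 4 of 7 had an unadjusted p under 0.05, where 12.6% of genes did, and DESeq2's Wald test called 2, Ccr2 and Cxcr6, where it called 3.3% of genes. The median log2 fold change of the 7 was 0.70, against 0.02 over all tested genes.

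Of these, Ccr2 had the smallest error, with a log2 fold change of 0.70 ± 0.16 (adjusted p = 0.083, and 0.024 by DESeq2). Cxcr6 had the largest difference, 1.76 ± 0.52 (adjusted p = 0.18, and 0.045 by DESeq2), followed by Cxcr3 at 1.50 ± 0.45 (adjusted p = 0.18) and Ccr7 at 1.06 ± 0.48 (adjusted p = 0.40). These 3 lymphocyte and dendritic cell receptors were also lower in NTC-Veh replicate 2 than in replicate 1, and a model with each liver left out gave 1.12 to 2.95 for Cxcr6. Cxcr4 differed by 0.69 ± 0.26 (adjusted p = 0.29), Ccr1 by 0.41 ± 0.44 (adjusted p = 0.79) and Cx3cr1 by -0.51 ± 0.64 (adjusted p = 0.83), the last with overlapping groups. Markers of leukocytes were higher in the same livers: the 6 genes that all leukocytes express (Ptprc, Cd53, Laptm5, Coro1a, Itgb2 and Lcp1) summed to 189 to 226 CPM in sgBap1-Veh against 130 to 144 CPM in NTC-Veh. Much of both sums was Lcp1, with means of 111 CPM in sgBap1-Veh and 86.3 CPM in NTC-Veh. Of the 6 genes, Ptprc, which encodes CD45, was called (1.05 ± 0.18, adjusted p = 0.039), and all 6 had an unadjusted p under 0.05. Over all tested genes, 0.523% were called and 12.6% had an unadjusted p under 0.05. Without NTC-Veh replicate 2 or without sgBap1-Veh replicate 1, 0 genes were called in vehicle livers by edgeR, Ptprc included. Of the 7 markers of Kupffer cells, the resident macrophages of the liver, 0 were called and 5 had an unadjusted p under 0.05, all 7 with higher fitted levels in sgBap1-Veh, and their sum was 352 to 533 CPM against 166 to 276 CPM in NTC-Veh. With CCl4 the sum was 463 to 900 CPM in NTC livers and 445 to 652 CPM in sgBap1 livers. In NTC livers 3 markers were called higher, where 27.5% of all tested genes were. In sgBap1 livers 1 was called higher and 2 lower, where 29% of genes were called higher and 27.7% lower. Fitted levels were higher with CCl4 for 6 of 7 markers in NTC livers and 3 of 7 in sgBap1 livers. Much of the rise was Marco, with means from 14.9 to 251 CPM in NTC livers and 27.8 to 189 CPM in sgBap1 livers. Clec4f went from 75.2 to 63.2 CPM and from 143 to 58.5 CPM. The part of Kupffer cell RNA in the receptor levels was not tested.

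In CCl4 livers Cxcr4 and Ccr1 were higher in all 3 sgBap1 livers than in all 3 NTC livers, and no receptor passed the test for the guide. edgeR called 0 of 7, where 0.253% of genes were called, 2 of 7 (Ccr1 and Cxcr4) had an unadjusted p under 0.05, where 13.4% of genes did, and DESeq2 called 0, where it called 2.95% of genes. The groups did not overlap for the same 2, both higher in sgBap1 livers, where 20.3% of genes did not overlap and 10.1% were higher without overlap. The log2 fold change was 0.53 for Cxcr4 (95% interval 0.13 to 0.93, adjusted p = 0.25) and 0.33 for Ccr1 (0.05 to 0.62, adjusted p = 0.30). Without the liver that held fat cell RNA these values were 0.50 and 0.24. For Ccr2 the interval was narrow, with a difference of -0.09 (-0.31 to 0.13). It was wider for the less abundant receptors, with 0.04 (-0.75 to 0.82) for Ccr7, 0.11 (-0.65 to 0.87) for Cxcr3, -0.34 (-1.26 to 0.58) for Cxcr6 and -0.08 (-1.02 to 0.86) for Cx3cr1. The signs for Ccr7 and Cxcr3 turned without the liver that held fat cell RNA (-0.08 and -0.10).

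The interaction of guide and CCl4 is the log2 fold change with CCl4 in sgBap1 livers minus that in NTC livers. It was negative for 6 of 7 receptors, with a median of -0.79 against -0.02 over all tested genes. It was positive for 0 of the 6 genes that all leukocytes express (median -0.86). The same held for 0 of 7 Kupffer cell, 0 of 7 T cell, 1 of 8 monocyte and 2 of 5 neutrophil markers. edgeR called 0 of 7 receptors and 0 of all genes (smallest adjusted p = 0.066). An unadjusted p under 0.05 was found for 3 of 7 receptors and for 10.6% of genes. DESeq2 called Ccr2 (adjusted p = 0.038), where it called 2.47% of genes. The values were -0.79 ± 0.18 for Ccr2 (adjusted p = 0.13), -2.10 ± 0.67 for Cxcr6 (adjusted p = 0.27), -1.39 ± 0.56 for Cxcr3 (adjusted p = 0.42) and -1.02 ± 0.59 for Ccr7 (adjusted p = 0.60). For Ccr1, Cxcr4 and Cx3cr1 they were -0.07 ± 0.68, -0.16 ± 0.31 and 0.42 ± 0.76. So a call in one guide group and none in the other, as for Ccr7 and Cxcr6, was not shown to differ between guides.

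Because the leukocyte genes themselves moved, each receptor was next set against them, with the geometric mean count of the 6 pan-leukocyte genes in place of the library size. On this scale, called per leukocyte RNA, Ccr1 and Ccr2 were higher after CCl4 and Ccr7, Cxcr3 and Cxcr6 were lower, with either guide. Ccr1 was at 1.81 and 2.24 counts per 100 pan-leukocyte counts in NTC-Veh and at 13.5 to 15.1 in NTC-CCl4, and at 1.14 and 2.02 in sgBap1-Veh and 16.7 to 19.6 in sgBap1-CCl4. Cxcr6 was at 5.98 and 2.24 in NTC-Veh and at 0.936 to 1.56 in NTC-CCl4, and at 8.39 and 8.43 in sgBap1-Veh and 0.754 to 1.35 in sgBap1-CCl4. Neither receptor overlapped between vehicle and CCl4 livers on this scale. Ccr7 was at 7.79 and 2.74 in NTC-Veh and at 2.62 to 3.11 in NTC-CCl4, so NTC-Veh replicate 2 lay within the CCl4 range, and it was at 4.87 and 8.98 in sgBap1-Veh and 2.61 to 3.16 in sgBap1-CCl4, without overlap.

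The log2 difference per leukocyte RNA in NTC and sgBap1 livers was 2.85 and 3.59 for Ccr1, and 1.62 and 1.68 for Ccr2. It was -0.91 and -1.21 for Ccr7, -1.64 and -2.21 for Cxcr3, and -1.72 and -3.03 for Cxcr6, all called. Cxcr4 (-0.31 and 0.35) and Cx3cr1 (0.23 and 1.54) were not called with either guide, with intervals of -0.91 to 0.28 and -0.24 to 0.94 for Cxcr4. Most genes of a liver are not leukocyte genes, and on this scale 89.1% and 81.7% of all genes were called, with medians of -2.39 and -1.53, so the 5 of 7 receptors called in each comparison were no larger a share than that of all genes. For the guide, 0 of 7 receptors were called on this scale in vehicle livers (61.5% of genes called), 0 in CCl4 livers (0.464%) and 0 in the interaction (35.5%). With Ptprc alone as the scale, Ccr7 was called in neither guide group (-0.53 and -0.48), and Cxcr4 (1.05) and Cx3cr1 (2.27) were called in sgBap1 livers. Cxcr4 was then also called in the interaction (1.00, adjusted p = 0.037 by edgeR), which per library was negative and not called. Ptprc itself had means of 12.4 CPM in NTC-Veh, 25.8 in sgBap1-Veh, 51.0 in NTC-CCl4 and 47.0 in sgBap1-CCl4. The positive value of 1.00 therefore comes from the change of Ptprc and is not a result about Cxcr4 itself. On the scale of the 6 genes, 6037 genes were called in the interaction, 6005 of them higher. The share called with Ptprc alone is not given. The 6 scale genes rose unequally, by 1.33 for Lcp1 to 3.31 for Itgb2 in NTC livers (log2).

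**Figure D3:**
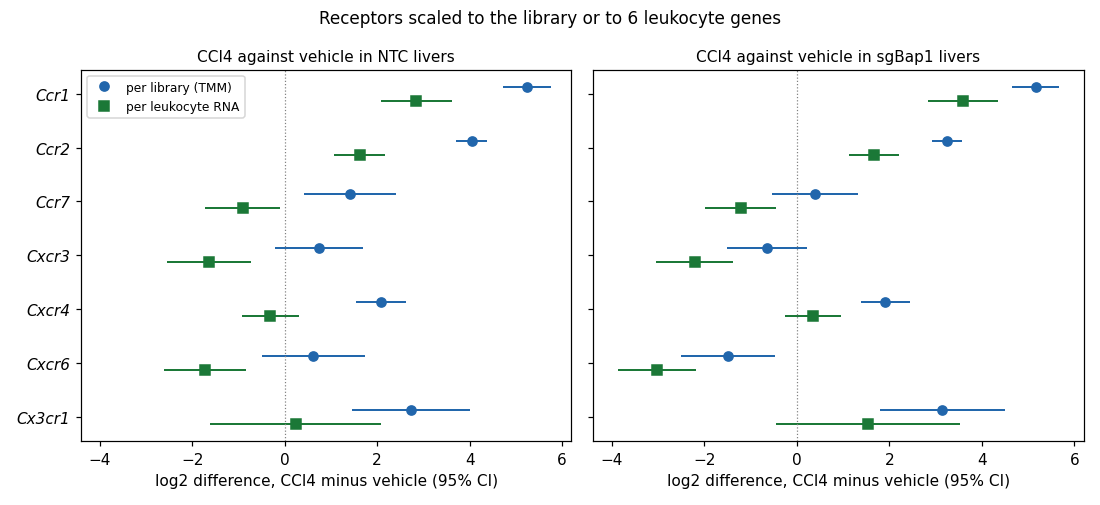
Log2 differences between CCl4 and vehicle livers with 95% intervals, per library (circles) and per leukocyte RNA (squares), in NTC and sgBap1 livers. Ccr1 and Ccr2 stay to the right of 0 on both scales, and Ccr7, Cxcr3 and Cxcr6 lie to the left of 0 per leukocyte RNA.

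The ligands of these receptors were examined as a list of 16 genes, all of which were tested. With CCl4, 10 were called higher and 2 lower in NTC livers, where 53.8% of all tested genes were called, 27.5% higher. In sgBap1 livers 9 were called higher and 3 lower, where 56.7% of genes were called, 29% higher. For the guide, edgeR called 0 of 16 in vehicle livers (0.523% of genes called), with 4 at an unadjusted p under 0.05 (12.6% of genes). In CCl4 livers it called 0 (0.253% of genes), with 2 unadjusted (13.4% of genes). The ligands of Ccr2 come first. Ccl2, which draws monocytes, rose by 4.70 ± 0.54 in NTC livers and 3.46 ± 0.49 in sgBap1 livers (log2), and Ccl7 by 6.82 ± 0.56 and 5.50 ± 0.51. Ccl12 had no count in the 2 NTC-Veh livers and was at 0.545 to 1.197 CPM in NTC-CCl4, at least 21.2-fold above the level of 3 counts over the 2 livers.

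Of the ligands of Ccr1, Ccl3 rose by 4.52 and 3.99, Ccl6 by 3.83 and 3.41 and Ccl9 by 1.38 and 1.21 in NTC and sgBap1 livers, while Ccl5 did not pass (1.23 and 1.14, adjusted p = 0.069 and 0.073). Cxcl16, the ligand of Cxcr6, rose by 1.47 and 0.99, so receptor and ligand moved in opposite directions in sgBap1 livers. Cxcl12, the ligand of Cxcr4, fell by 1.14 and 1.01 while Cxcr4 rose, and Cx3cl1 rose by 1.37 and 1.66 with its receptor. Ccl8 (3.49 and 5.78) and the Ccr7 ligands Ccl19 (0.53 and 0.71) and Ccl21a (-0.24 and 1.09) were not called. Among sgBap1-CCl4 livers all of them were highest in replicate 2, which held fat cell RNA. There Ccl8 was at 2.84 CPM against 0.119 and 0.0213 CPM, and Ccl19 at 3.41 against 1.09 and 0.744 CPM. Ccl21a was at 3.32 against 0.664 and 0.234 CPM. It belongs to a family of near-identical copies, so that its counts are uncertain.

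Of the Cxcr3 ligands, Cxcl9 was at 11.3 and 6.37 CPM in NTC-Veh, 33.2 and 45.9 CPM in sgBap1-Veh, 27.9, 23.5 and 52.2 CPM in NTC-CCl4 and 15.8, 14.9 and 20.1 CPM in sgBap1-CCl4. It was thus called higher with CCl4 in NTC livers (1.97 ± 0.40) and lower in sgBap1 livers (-1.22 ± 0.36), with an interaction of -3.19 ± 0.54 that did not pass the test (adjusted p = 0.079). Cxcl10 rose in both (3.48 and 1.83) and Cxcl11 fell in both (0.51 and 1.62 on the log2 scale).

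**Figure D4:**
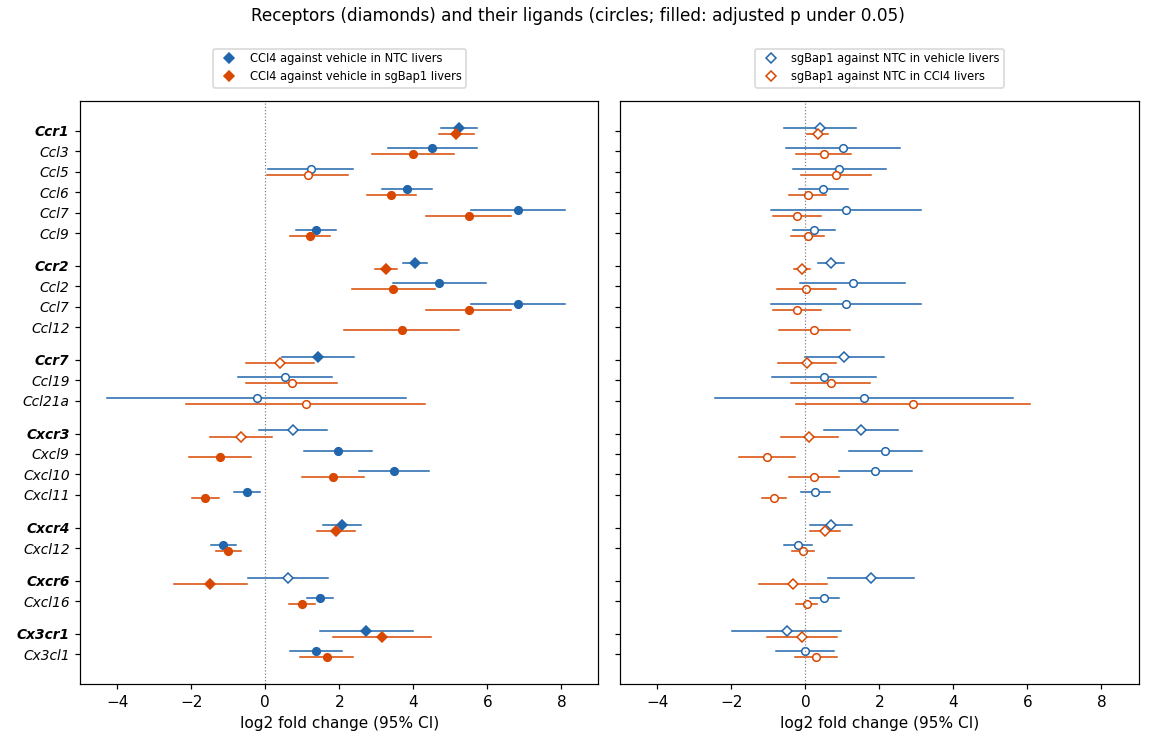
Log2 fold changes with 95% intervals of the receptors (diamonds) and their ligands (circles, below each receptor) with CCl4 (left) and with the Bap1 guide (right), filled where the adjusted p is under 0.05. Ccl12 is not drawn against NTC-Veh, where it had no count, and Ccl8 is left out for its wide intervals. With CCl4 the ligands of Ccr1 and Ccr2 lie right of 0, Cxcl12 and Cxcl11 left of it, and on the right no symbol is filled.

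Of 16 other chemokine receptors, 11 were tested. With CCl4, 5 were called higher and 1 lower in NTC livers, where 53.8% of all tested genes were called. In sgBap1 livers 4 were called higher and 2 lower, where 56.7% of genes were called. Both counts were near the share of all genes. Cxcr2, a neutrophil receptor, rose by 2.46 ± 0.27 and 2.53 ± 0.27. Ccr3, an eosinophil receptor, rose in NTC livers (2.62 ± 0.79) and did not pass in sgBap1 livers (1.62 ± 0.72). It had only 0 and 4 counts in NTC-Veh and 4 and 3 in sgBap1-Veh, so the size of its change is uncertain. No gene was called in the interaction by edgeR. Ccr9 rose by 1.68 and 1.77. Ackr4, a scavenger of Ccr7 ligands, fell by 2.41 and 3.26 on the log2 scale, to 4, 17 and 6 counts in NTC-CCl4 and 10, 10 and 1 in sgBap1-CCl4. Xcr1 of cross-presenting dendritic cells was called lower in sgBap1 livers alone (-1.59 ± 0.56, against -0.10 ± 0.58 in NTC livers, interaction adjusted p = 0.57 by edgeR). Of 15 genes that carry the receptor signal, 14 were called higher with CCl4 with either guide, the exception being Gnai3. Over all tested genes, 27.5% were called higher in NTC livers and 29% in sgBap1 livers. Among the signal genes Pik3r5 and Pik3cg, subunits of the PI3-kinase that G proteins activate, rose by 2.93 and 2.50 in NTC livers and 2.64 and 1.88 in sgBap1 livers. Rgs1, which damps the receptor signal, rose by 2.60 and 1.93, and Elmo1, the partner of Dock2, by 2.44 and 2.08. Dock2, which activates Rac in migrating leukocytes, rose by 2.58 and 1.63. For the guide in vehicle livers 1 of 15 was called, Vav1 (0.89), where 0.523% of genes were called.

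Levels of different receptors were compared per kb of exon. In NTC-Veh, Cxcr4 was highest at 0.758 ± 0.248 CPM per kb (SD, n = 2) and Ccr1 lowest at 0.0921 ± 0.0057, with Cx3cr1, Ccr7, Ccr2, Cxcr6 and Cxcr3 between 0.380 and 0.285. Neighbours in that order overlapped except Cxcr3 and Ccr1. In sgBap1-Veh the order was Cxcr4 (1.22), Cxcr6 (1.01), Cxcr3 (0.803), Ccr7 (0.783), Ccr2 (0.534), Cx3cr1 (0.273) and Ccr1 (0.125), where Cxcr6 and Cxcr3, and Cxcr3 and Ccr7, overlapped.

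After CCl4 the order turned. In NTC-CCl4 Ccr2 was highest at 5.43 ± 0.61 (SD, n = 3), followed by Ccr1 at 3.51 ± 0.20, Cxcr4 at 3.21 ± 0.55 and Cx3cr1 at 2.51 ± 0.84, which overlapped from Ccr1 to Cx3cr1. Ccr7 (0.997), Cxcr3 (0.479) and Cxcr6 (0.462) came last, the last 2 overlapping. In sgBap1-CCl4 the order was Ccr2 (5.10), Cxcr4 (4.63), Ccr1 (4.42), Cx3cr1 (2.37), Ccr7 (1.02), Cxcr3 (0.515) and Cxcr6 (0.363), with overlap among the first 3 and between the last 2.

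The likeness of the receptors over the 10 livers was described by Pearson's r of log2(CPM + 2), with no test, since livers share the group means and their library depth. Ccr1 and Ccr2 were most alike (r = 0.99), Ccr1, Ccr2, Cxcr4 and Cx3cr1 had r of 0.86 to 0.99 with one another, and Cxcr3 and Cxcr6 had r = 0.80. Cxcr6 and Cx3cr1 were least alike (-0.51). After the group means were removed, Cxcr6 and Cx3cr1 had r = -0.91 and Cxcr3 and Cxcr4 r = 0.85, over 21 pairs with a median of 0.17. In these deviations Cxcr3 followed the pan-leukocyte genes (0.94) and Cx3cr1 ran against them (-0.82). Vehicle groups of 2 livers give mirrored deviations, so such r rest on fewer independent values than 10. For Cx3cr1 the NTC-Veh pair, at 0.626 and 2.80 CPM, weighs heavily.

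**Figure D5:**
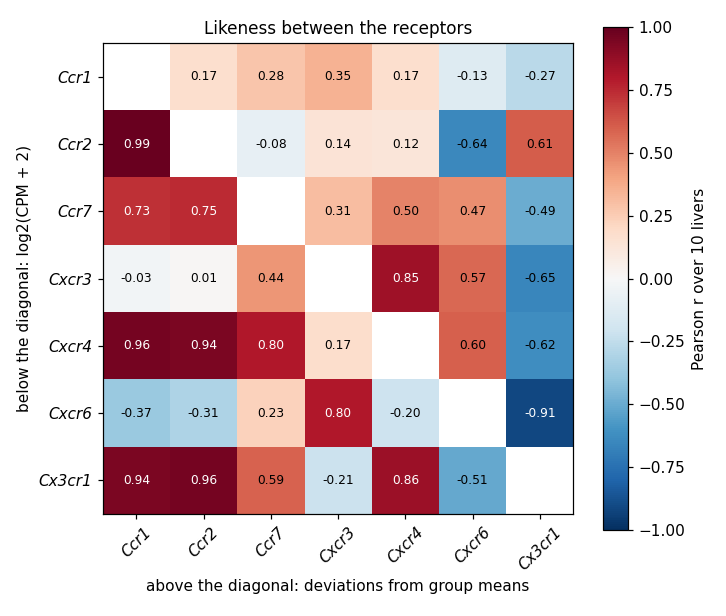
Pearson's r between the 7 receptors over 10 livers, below the diagonal for log2(CPM + 2) and above it for deviations from group means (colour scale from -1 to 1). Below the diagonal Ccr1, Ccr2, Cxcr4 and Cx3cr1 form 1 block, and above it Cxcr6 and Cx3cr1 have the lowest value, -0.91.

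Among the 12028 genes whose mean count was 100 or more, the gene most like Ccr1 was Plaur, the urokinase receptor (r above 0.99), and that most like Ccr2 was Tlr6, a toll-like receptor (also above 0.99). Relb, an NF-kappaB subunit, was most like Cxcr4 (0.99, and 0.98 for the deviations). Cxcr6 was most like Trpm2 (0.95), which was also the third gene for Cxcr3 (0.91), after Septin1 (0.92) and the macrophage gene Folr2 (0.92). For Ccr7 it was Exosc8 (0.96) and for Cx3cr1 Chmp6 (0.98). The other genes named by the same rule were Anxa2 and Eif6 for Ccr1, Sirpb1c and Aldh18a1 for Ccr2, Med10 and Tspan4 for Ccr7, Stx3 and Cytip for Cxcr4, Ctla2b and Gbp8 for Cxcr6, and Pfkfb4 and Dbndd2 for Cx3cr1, with r of 0.90 or more.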

How the data were processed

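The authors aligned reads with STAR 2.7.6a and quantified genes with Salmon 1.4.0, per the labels, and deposited an estimated count per gene, without normalisation, for 10 livers. After rounding, edgeR 4.0.16 (R 4.3.3) was run with TMM normalisation, filterByExpr by the 4 groups (17015 of 55291 genes kept), 1 robust quasi-likelihood model of the 4 groups and 5 contrasts. Tests were two-sided and adjusted by Benjamini-Hochberg over all tested genes (threshold 0.05). The SE is the value that gives the printed p, and p-values cover the spread between the livers sampled. Exon positions and lengths came from GENCODE vM21 and promoters from RefSeq. The receptors and all gene lists were chosen with earlier results of these data known. Genes most like a receptor are the 3 of highest r. All ligands are named, and of the other receptors and signalling genes up to 4 called per list and comparison, by absolute log2 fold change, except 1 that is not reported here. Genes named beyond these were chosen after their values were seen. Alternatives were DESeq2 1.42.0 size factors and Wald test, other filters, a replicate block, 2-group models, each liver left out, Ptprc as leukocyte scale and transcript length, and, added after the data were seen, scaling by library size alone. The analysis was tested on simulated data. No batch is named in the labels.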

Additional observations from a re-analysis of the deposited data

Results flagged for a closer look

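Cxcl9 and Cxcl11, ligands of Cxcr3, were higher in both sgBap1-Veh livers than in both NTC-Veh livers. They were lower in all 3 sgBap1-CCl4 livers than in all 3 NTC-CCl4 livers. Over all tested genes, 21.7% were higher without overlap in vehicle livers and 10.2% lower without overlap in CCl4 livers. The difference between guides thus had opposite signs without and with injury, but edgeR called 0 of the 16 ligands for the guide in either setting. The interaction was -3.19 (log2, adjusted p = 0.079) for Cxcl9 and -1.11 (adjusted p = 0.099) for Cxcl11 by edgeR's quasi-likelihood test, and neither passed the threshold.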

How the results depend on the processing

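Counts in vehicle livers were low for Ccr1 (9 to 11), Ccr7 (11 to 49), Cxcr3 (12 to 63) and Cxcr6 (9 to 81), which limits the precision there, as do vehicle groups of 2 livers. Calls of Ccr1, Ccr2, Cxcr4 and Cx3cr1 with CCl4 kept under every alternative run that scales by the library.

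Genes called for the guide in vehicle livers (89) numbered 177 without the filter, 562 by DESeq2's Wald test (2 receptors), 47 with library size scaling, 35 with only the 2 groups and 0 to 150 with a liver left out. It was 0 without NTC-Veh replicate 2 or sgBap1-Veh replicate 1, and 150 without sgBap1-CCl4 replicate 2. In CCl4 livers (43) they numbered 113, 502 by DESeq2, and 1 to 49 with a liver left out. For the interaction (0) they numbered 103 without the filter, 420 by DESeq2 (1 receptor), 8 with library size scaling and 0 to 12. With library size scaling the median of all genes moved to 0.50 and 0.52 with CCl4 in NTC and sgBap1 livers, and 80.7% and 78.5% of calls were higher.

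With the replicate number as a block, 1 gene was called in vehicle livers and 3 in CCl4 livers, and no receptor call changed. The labels do not say whether the numbers pair the livers. Deviations of same-numbered livers correlated by -0.23 to 0.14, and those of differently numbered livers by -0.28 to 0.28. In groups of 2 livers the deviations mirror each other, so these values cannot settle the question.

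With a liver left out, the sign turned for Cxcr6 with CCl4 in NTC livers (-0.019 to 1.82). It did so for Cx3cr1 with the guide in vehicle livers (-1.22 to 0.94). With the guide in CCl4 livers it did so for Ccr2 (-0.16 to 0.0059), Ccr7 (-0.082 to 0.16), Cxcr3 (-0.10 to 0.32) and Cx3cr1 (-0.33 to 0.14), and in the interaction for Ccr1 (-0.32 to 0.15), Cxcr4 (-0.54 to 0.14) and Cx3cr1 (-1.02 to 1.14). None of these was called, except Cxcr6 at 1.82. With Ptprc as the scale, the sign turned for Cxcr4 with CCl4 in NTC livers (0.054), Ccr2 with the guide in CCl4 livers (0.0075) and Ccr7 in the interaction (0.044). On that scale 1 receptor, Cxcr4, was called in the interaction (1.00). Per library its value was negative, so the positive value comes from the change of Ptprc. The mean of Ccr2 per kb was 3.94 with the longest transcript. The causes were not tested.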
